A study of Vitis vinifera with 171 samples.

Results

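The 200 gene probes described here fell steeply between veraison and mid-ripening of 2008, and most then moved little until harvest. They were taken from 117999 gene probes by 1 score, the fall in log2 intensity between veraison and mid-ripening minus the size of any further move to harvest, with each stage averaged over 11 vineyards. The values of 2008 therefore chose the members and are given as a description, whereas 2006 and 2007 played no part in the choice. The scores ran between 4.57 and 2.26, and the last member (2.258) and the first probe left out (2.257) were almost alike.

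The berries were of Vitis vinifera cultivar Corvina, clone 48, and RNA came from pericarp, the berry without its seeds, taken at veraison, mid-ripening and harvest. In 2006 and in 2007 the vineyards AM, CS, MN and PSP were sampled, and in 2008 these together with BA, BM, CC, FA, GIV, PM and VM, with biological replicates A, B and C for every vineyard, year and stage. Each of the 171 samples was hybridized to 1 single-colour NimbleGen array (36 in 2006, 36 in 2007 and 99 in 2008). The labels name no treatment, and the vineyards differed in site, soil and farming. Per the methods all vineyards were picked on the same day for a stage and the dates were shifted between years, so that a stage of 1 year need not be the same age of berry as that of another.

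Veraison is the onset of ripening, when the berry softens, colors and begins to import sugar. Growth programs of the green berry, such as photosynthesis and wall synthesis, are known to be reduced around this time, and ripening programs take over. A pericarp sample mixes skin and flesh, so that a loss of RNA per cell and a loss of the cells that hold it cannot be told apart.

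No gene names come with the intensities. Probes with neighboring numbers and a shared profile over all arrays, those of 2008 included, were grouped into 29545 probe sets, mostly of 4 probes. The 200 probes lay in 93 of these sets. In 18 sets all 4 probes were members, in 15 sets 3, in 23 sets 2 and in 37 sets 1. The 172 other probes of the same 93 sets were not chosen, and 154 of them also fell by more than 1 log2 unit in 2008 (median -2.07). As shared profiles shaped the sets, part of this likeness was built in. Probes of a set are taken to report on 1 gene and are not independent of each other. Only 11 of the 93 sets, holding 23 of the probes, could be given a gene by matching their profiles to the expression values that the study prints for named genes.

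In 2008 the median level of the 200 probes was 10.33 at veraison, 7.21 at mid-ripening and 7.20 at harvest on the log2 scale, while that of all gene probes was 8.79, 8.85 and 8.85. The median step was -2.92 between veraison and mid-ripening. Between mid-ripening and harvest it was -0.05, and single probes ran between -1.94 and 1.71. From veraison to mid-ripening all 200 probes fell by more than 1, as the rule requires in effect, against 4.57% of all gene probes. The fall exceeded 1 in every one of the 11 vineyards for 153 probes and in 10 vineyards for a further 30, and no probe showed it in fewer than 6.

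"Switched off" described about as many of the probes as it did not. Random control probes, which match no grapevine gene, give the background of an array, and their 95th percentile averaged 7.08 at mid-ripening of 2008. At that stage 93 of the 200 probes lay below this mark and 107 above it, and at veraison 1 lay below it. Over all gene probes, 34.0% were below the mark at mid-ripening and 34.9% at veraison. The levels at mid-ripening ran between 4.59 and 11.11, so that some probes fell steeply and stayed bright.

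Vineyards differed in the size of the fall. The median step was largest in CS (-3.77) and smallest in AM (-1.88), and it lay between -3.30 and -2.74 in the other 9 vineyards. AM had the highest median at mid-ripening (8.09), against 6.74 to 7.58 elsewhere, whereas its veraison median of 10.06 was within the range of the other vineyards, 10.02 to 11.02. In AM 172 of the 200 probes fell by more than 1, against 185 to 200 in the other vineyards.

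The first independent question was whether the same probes also dropped in 2006. They did in most cases: 170 of the 200 probes were lower at mid-ripening than at veraison (limma on the 12 triplicate means of the year with vineyard as a term, adjusted p under 0.05 over all gene probes), against 13.7% of all gene probes. The median step was -1.88, against 0.02 for all gene probes, and 163 probes fell by more than 1, against 7.24% of all. The step was negative in all 4 vineyards for 176 probes, a count for which no share of all gene probes is given. Median steps by vineyard were -2.16 in MN, -1.82 in AM, -1.78 in CS and -1.69 in PSP, and the 4 medians at mid-ripening (6.58 to 7.02) did not overlap those at veraison (8.46 to 9.33).

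In 2007 the drop was called for 77 of the 200 probes (38.5%), against 3.06% of all gene probes, and none was called higher, against 2.51%. The median step was -1.10, against 0.00 for all gene probes. The fall exceeded 1 in 103 probes, against 5.64% of all gene probes. In 106 probes the step was negative in all 4 vineyards, a count for which no share of all gene probes is given. The count called lower was 44 without AM, 40 without CS, 48 without MN and 10 without PSP. In 2006 it was 149 to 164 without 1 vineyard. These fits hold fewer values, and shares of all gene probes are not given for them. Nothing particular to the 200 probes is read from these counts. Of the 77 probes, 73 had also been called in 2006, and they lay in 43 sets. Over all gene probes, 2425 of the 3608 called lower in 2007 had been called in 2006. Among the called members of each year, steps reached down to -5.01 in 2007 and -6.63 in 2006. A further 97 probes were called in 2006 but not in 2007, against 13787 of the 117999 gene probes. The other 26 were called lower in neither year, against 100604 of all gene probes, apart from those called in 2007 only.

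In MN and PSP part of the decline of 2007 was measured after mid-ripening. They showed median steps of only -0.69 and -1.16 up to mid-ripening, with 86 and 114 of the probes falling by more than 1, but a further -1.72 and -0.91 between mid-ripening and harvest. In AM and CS most of the drop was complete by mid-ripening, with median steps of -1.69 and -1.39, followed by -0.27 and -0.25. At harvest the medians of the 4 vineyards were 6.64 in AM, 6.66 in CS, 6.62 in MN and 6.58 in PSP. Between veraison and harvest, 153 probes fell by more than 1 in 2007 (median -2.02) and 168 in 2006 (median -2.07). No share of all gene probes is given for this span.

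The step between mid-ripening and harvest, which shares the mid-ripening arrays with the step before it, was called for few probes. In 2007, 7 of the 200 were lower at harvest, against 0.299% of all gene probes, with falls of 1.32 to 2.86, and none was higher, against 0.196%. At an unadjusted p under 0.05, 84 of the 200 differed in either direction, against 13.1% of all. In 2006 the single call was a probe of VIT_19s0090g00360 (-0.89, adjusted p = 0.0254), against 0.308% of all gene probes called lower, and 34 of the 200 probes had an unadjusted p under 0.05, against 15.1% of all gene probes. With AM, CS, MN or PSP left out, the count was 0 in both years, and shares of all gene probes are not given for these fits.

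Whether the step of 2007 differed from that of 2006 was tested on the differences within vineyards. None of the 200 probes passed (lowest adjusted p = 0.0515), against 0.0356% of all gene probes called higher and 0.112% called lower. At an unadjusted p under 0.05, 79 of the 200 differed, against 16.6% of all gene probes, and the median difference was 0.67. With single arrays in place of triplicate means, 96 of the 200 were called, 81 of them higher (the weaker fall in 2007), against 21.2% of all gene probes called and 12.9% higher. The test on means had 3 residual degrees of freedom, and the single-array fit takes replicates of a vineyard as independent.

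The level at veraison was higher in 2008 than in the other years for most of the probes: the median difference was -1.48 for 2006 minus 2008 and -1.37 for 2007 minus 2008, against 0.01 and 0.04 over all gene probes. Within AM, CS, MN and PSP alone these medians were -1.48 and -1.50. As the choice favored a high veraison level in 2008, some difference of this sign was built in, and no test was made. The 200 probes fell into a group of 65 whose veraison level in both other years was within 1 log2 unit of that of 2008 or above it, a group of 103 that lay more than 1 below it in both years, and 32 that changed sides between years. With 2008 taken over the 4 shared vineyards only, the first 2 groups held 58 and 113 probes.

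The 65 probes of the first group lay in 38 sets. Their vineyard medians at veraison averaged 9.54 ± 0.79 in 2006 (SD, n = 4), 10.55 ± 0.77 in 2007 (n = 4) and 9.69 ± 1.04 in 2008 (n = 11). At harvest they averaged 5.83 ± 0.22, 6.09 ± 0.18 and 5.98 ± 0.16. Of the 65, 64 were called lower at mid-ripening in 2006 and 55 in 2007, but the grouping used the veraison levels that enter these tests.

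The 103 probes of the second group (44 sets) were highest at veraison of 2008. Their vineyard medians averaged 8.60 ± 0.25 in 2006, 8.26 ± 0.19 in 2007 and 11.04 ± 0.27 in 2008, and the lowest of the 11 vineyards in 2008 (10.53) was above the highest of the other years (8.87), as the grouping itself favors. At mid-ripening the means were 7.02, 7.59 and 7.74. Of these probes, 78 were called lower in 2006 and 8 in 2007.

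The highest score belonged to VitusP00275603, a probe of the second group with no gene name, singled out after its values were seen. All 4 probes of its set were members. In 2008 its level over 11 vineyards was 5.50 at the lowest, 6.87 in the middle and 8.55 at the highest at mid-ripening, against 10.85, 11.54 and 12.56 at veraison, with no overlap. Its step was -0.36 in 2007 (limma, adjusted p = 0.572) and -0.83 in 2006 (adjusted p = 0.0351). At veraison it averaged 6.57 ± 1.29 in 2007 and 7.37 ± 0.56 in 2006 (SD, n = 4 each). The second in rank, VitusP00033391, came from another set with 4 member probes and also belonged to the second group, but it was bright at veraison in every year, with 10.11 ± 0.72 in 2006 (n = 4), 11.11 ± 0.78 in 2007 (n = 4) and 12.76 ± 0.33 in 2008 (n = 11). It fell by 3.41 in 2006 (limma, adjusted p = 6.47e-05), while its step of -1.68 in 2007 did not pass (adjusted p = 0.18), with mid-ripening levels of 7.02 to 11.67 over the 4 vineyards.

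Of the 11 named genes, 4 dropped in both 2006 and 2007. They encode an aminotransferase, an ankyrin protein, a cellulose synthase-like protein and a subtilisin protease, and all 4 belong to the first group, whose veraison level in 2006 and 2007 was within 1 log2 unit of that of 2008 or above it.

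VIT_08s0058g00930 is annotated as a mitochondrial alanine-glyoxylate aminotransferase, an enzyme that moves an amino group between alanine and glyoxylate. In 2008 its lowest, median and highest vineyards were at 6.35, 7.06 and 7.54 at mid-ripening, against 8.93, 10.60 and 11.64 at veraison. In 2007 it measured 7.48 in AM, 7.90 in CS, 8.84 in MN and 8.48 in PSP at mid-ripening, against 12.62, 11.95, 12.66 and 11.38 in the same vineyards at veraison. In 2006 the mid-ripening levels were 7.16, 6.63, 7.77 and 6.53, against 11.02, 9.31, 11.12 and 10.00 at veraison. The stages did not overlap in any year. The step was -3.98 in 2007 (95% interval -4.87 to -3.09, adjusted p = 0.00432), or 15.8-fold, and -3.34 in 2006 (-3.88 to -2.80, adjusted p = 6.29e-05), or 10.1-fold (limma), with 10 and 9 of the 12 mid-ripening arrays above the random probes' mark.

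VIT_13s0106g00230 is annotated as ankyrin, a repeat that holds proteins together. At mid-ripening of 2007 it measured 5.09 in AM, 5.25 in CS, 7.18 in MN and 4.70 in PSP, against 9.79, 8.83, 11.21 and 9.94 in the same vineyards at veraison. The step was -4.38 (limma, adjusted p = 0.00452), against -2.50 in 2006 (adjusted p = 6.74e-05). At mid-ripening of 2006 and of 2008 none of its arrays exceeded the 95th percentile of its random probes. With that percentile as a floor, the falls of 2008 and 2006 were at least 1.18-fold and at least 1.36-fold. In 2007, 2 of 12 mid-ripening arrays exceeded it, and the fall was at least 6.95-fold. Its second member probe was also called in both years.

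VIT_00s0414g00020 is annotated as cellulose synthase CSLE1, a member of the cellulose synthase-like glycosyltransferases of cell wall polysaccharides. In 2007 it measured 4.61 in AM, 7.37 in CS, 7.95 in MN and 7.39 in PSP at mid-ripening, against 9.71, 10.11, 12.26 and 10.53 at veraison. The step was -3.82 (limma, adjusted p = 0.00893). At mid-ripening 7 of 12 arrays were above the random probes' mark, and with that mark as a floor the fall was at least 7.43-fold. The step no longer passed without PSP (-4.05, adjusted p = 0.064). In 2006 it was -2.70 (adjusted p = 0.00222), with 5.65 to 6.29 at mid-ripening, against 7.59 to 10.08 at veraison.

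VIT_13s0019g02640 encodes a subtilisin protease, a serine protease of a mostly secreted family. In 2007 it measured 7.06 in AM, 6.97 in CS, 7.03 in MN and 6.14 in PSP at mid-ripening, against 10.31, 9.24, 10.29 and 8.82 at veraison. It fell by 2.86 in 2007 (limma, adjusted p = 0.00481) and by 1.59 in 2006 (adjusted p = 0.00408). At mid-ripening 4 of 12 arrays were above the random probes' mark in each of these years. With that mark as a floor, the falls were at least 5.43-fold in 2007 and at least 2.40-fold in 2006. Over these 2 years CS of 2006 had the smallest step (-0.66), and in 2008 AM (-0.75) and PM (-0.74) also fell by less than 1.

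RD22, beta-carotene hydroxylase and a gene without annotation dropped in 2006, while their step of 2007 did not pass. Their veraison level averaged less in 2007 than in 2006, a difference that did not pass either (adjusted p = 0.127, 0.22 and 0.142). VIT_04s0008g04020 is annotated as RD22, a gene that responds to dehydration in Arabidopsis, and had 3 member probes. In 2007 it measured 7.41 in AM, 7.51 in CS, 9.41 in MN and 7.81 in PSP at mid-ripening, against 8.89, 6.44, 7.81 and 6.81 at veraison, so that it was lower at mid-ripening in AM alone. In 2006 it measured 7.76, 7.37, 7.64 and 7.77 at mid-ripening, against 10.69, 9.51, 9.65 and 10.74 at veraison. The step of 2006 was -2.52 (limma, adjusted p = 0.000282), and that of 2007 was 0.55 (adjusted p = 0.496). The step of 2007 minus that of 2006 was 3.07 (95% interval 1.98 to 4.15) and did not pass over all gene probes (adjusted p = 0.078), but it did with 50 added to the intensities (2.67, adjusted p = 0.0354).

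VIT_02s0025g00240 encodes beta-carotene hydroxylase, which makes xanthophylls from beta-carotene. Its vineyards in 2008 were at 6.63, 7.49 and 8.19 at mid-ripening (lowest, median and highest), against 9.39, 10.24 and 11.55 at veraison. In 2006 it fell by 1.82 (limma, adjusted p = 0.000603), with 6.40 to 6.76 at mid-ripening, against 8.21 to 8.60 at veraison. In 2007 only AM showed a fall (7.16 at mid-ripening, against 8.52 at veraison), and the step was 0.18 (adjusted p = 0.868).

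VIT_19s0090g00360, which has no annotated hit, had 4 member probes. All 4 were called lower at mid-ripening in 2006, with steps of -2.58 to -1.04, and none in 2007, with steps of -0.20 to 0.90. At veraison its highest-scoring probe averaged 8.72 ± 0.12 in 2006, 6.14 ± 1.16 in 2007 (SD, n = 4 each) and 10.92 ± 0.53 in 2008 (n = 11).

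The 4 other named genes measured more at veraison in 2008 than in 2007 and 2006. RD22, beta-carotene hydroxylase and VIT_19s0090g00360 did so too, and all of these genes belong to the second group. The choice favored this difference, and it was not tested. For the 4 other genes, no highest-scoring probe passed the test of the step in 2006 or 2007. VIT_06s0004g05660 encodes a family 1 glycosyl transferase, an enzyme class that attaches sugars to other molecules, and all 4 of its probes were members. In 2008 it was among the brightest, at 8.53, 9.40 and 10.73 at mid-ripening (lowest, median and highest vineyard), against 12.88, 14.04 and 14.24 at veraison, and the means were 20.9-fold lower at mid-ripening. At veraison it measured 9.61 in AM, 9.82 in CS, 6.76 in MN and 6.93 in PSP in 2007, against 9.58, 9.60, 9.33 and 8.69 in 2006. Its step was 0.98 in 2007 (limma, adjusted p = 0.185) and -0.36 in 2006 (adjusted p = 0.144). Another of its probes was the single member called higher in 2006 (0.65, adjusted p = 0.0229), where 10.8% of all gene probes were. In 2008 it averaged 10.79 ± 0.96 at harvest, against 9.44 ± 0.64 at mid-ripening (SD, n = 11 each).

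VIT_10s0003g02090 encodes a GDSL lipase, one of a family of esterases with members that act in cuticle building. At veraison its vineyards lay at 5.59 to 6.23 in 2006, 4.86 to 6.92 in 2007 and 8.64 to 10.39 in 2008. The levels at mid-ripening were 5.97 to 6.58 in 2007 and 5.80 to 6.63 in 2006, with steps of 0.06 in 2007 (limma, adjusted p = 0.943) and 0.25 in 2006 (adjusted p = 0.39). At veraison 4 of its 12 arrays in 2006, 5 of 12 in 2007 and 33 of 33 in 2008 exceeded the 95th percentile of their random probes.

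VIT_11s0016g02980, an unknown protein, had 4 member probes. The highest-scoring one was at 5.04 to 6.10 at veraison of 2006, 4.50 to 5.34 in 2007 and 7.78 to 9.78 in 2008. At veraison it was above the random probes' mark on 0 of 12 arrays in 2007 and 2 of 12 in 2006. No fold is therefore given for those years. The highest probe mean of the gene at veraison was 8.36 in 2006 and 7.07 in 2007, above the mean marks of 6.30 and 6.75. Another probe of the gene was called in 2006 (-1.01, limma, adjusted p = 0.0444).

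VIT_18s0001g00210 is annotated as lysine decarboxylase, a label that in plants also covers enzymes of cytokinin activation. It averaged 6.62 ± 1.36 at mid-ripening, against 6.26 ± 0.70 at veraison in 2007, and 6.95 ± 0.81, against 7.46 ± 0.42 in 2006 (SD, n = 4). In 2008 the means were 7.96 ± 0.75 at mid-ripening, against 10.61 ± 0.71 at veraison (n = 11).

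The veraison levels of 2007 and 2006 were then compared directly within the 4 vineyards. None of the 200 probes, and 0% of all gene probes, passed in either direction (limma, 3 residual degrees of freedom, lowest adjusted p of a member = 0.107). At an unadjusted p under 0.05, 74 of the 200 differed, against 15.5% of all. The median difference over the 200 was 0.16. Named genes measured both more and less in 2007, though none of these differences passed. CSLE1 (2.09), ankyrin (2.77), the aminotransferase (1.79) and the subtilisin protease (1.53) measured more in 2007 in all 4 vineyards. RD22 (-2.66) and VIT_19s0090g00360 (-2.58) measured less in all 4. On single arrays 110 of the 200 probes were called, 64 higher and 46 lower in 2007, against 32.6% of all gene probes, 13.5% higher and 19.2% lower.

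The rule averaged over vineyards, so that it did not use their differences within 2008. At veraison 187 of the 200 probes differed among the 11 vineyards (limma F test on 33 arrays, adjusted p under 0.05), against 46% of all gene probes, and at mid-ripening 107 did, against 52.2%. The rule picked probes that were bright at veraison and low at mid-ripening on these same arrays: 0.5% of the 200 probes lay below the random probes' mark at veraison, against 34.9% of all gene probes, and 46.5% did at mid-ripening, against 34.0%. Nothing particular to the 200 probes is read from these shares. The count at veraison was 119 without replicate A and 105 without replicate C, and that at mid-ripening was 38 with the slide as a random block. The median SD over vineyards was 0.66 at veraison and 0.63 at mid-ripening for the 200 probes, against 0.46 and 0.39 for all gene probes.

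The first group of 65 probes varied more among vineyards at veraison than the second group of 103. Its median SD over vineyards was 1.05, against 0.53 for the second group, while at mid-ripening the 2 groups had 0.63 each. The vineyard medians of the first group ran between 8.10 in FA and 11.58 in BM, with MN (10.86) and BA (10.47) next to BM and PM (8.66) next to FA. Those of the second group ran between 10.53 in BM and 11.46 in CS, with PM (11.35) and FA (11.24) next to CS. BM was thus the highest vineyard in one group and the lowest in the other. No test was made on this grouping.

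Named genes showed both orders, on veraison arrays that also entered the rule. A gene that is high in only some vineyards can pass the rule through them. The 2008 step of ankyrin was -7.01 in BM but -0.33 in FA. Nothing particular to these genes is therefore read from the F tests given here. Ankyrin measured 11.64 in BM, 9.68 in MN and 9.60 in BA at veraison of 2008, but 4.41 in FA, 4.59 in PM and 5.35 in PSP, a range from far above the random probes to below them (F = 15.0, adjusted p = 3.48e-06). The subtilisin protease measured 10.74 in BM, 10.37 in MN and 10.31 in BA, but 6.42 in FA and 6.62 in PM (F = 16.0, adjusted p = 2.27e-06). CSLE1 was at 10.64 in MN and 10.21 in BM, but at 6.71 in PM and 6.67 in AM (F = 8.92, adjusted p = 0.000123). In contrast, the glycosyl transferase measured least in BM (12.88) and GIV (12.99) and most in PSP (14.24), and beta-carotene hydroxylase measured 11.55 in PM but 9.40 in BM and 9.39 in MN.

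At mid-ripening of 2008, a stage at which the rule favored low levels, few arrays could show such differences. Ankyrin was above the 95th percentile of the random probes on 0 of 33 arrays, the subtilisin protease on 2 and CSLE1 on 5, while the glycosyl transferase was on 32. The F test did not pass for ankyrin (adjusted p = 0.372), the subtilisin protease (adjusted p = 0.193), CSLE1 (adjusted p = 0.16) or the glycosyl transferase (adjusted p = 0.267). It passed for the highest-scoring of the 3 RD22 probes (adjusted p = 0.0359), though not for the other two (adjusted p = 0.0893 and 0.0686), and for VIT_19s0090g00360 (adjusted p = 0.00587), where the vineyards ranged between 5.29 and 8.51.

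Few gene lists touched the 200 probes, since only 11 of their sets are named. CSLE1 was the only member among 78 named cell wall sets, of which 17 were called lower and 7 higher after veraison in 2007, and 11 lower and 30 higher in 2006. The GDSL lipase was the only member among 41 lipid and cuticle sets, of which 0 were called lower and 4 higher in 2007, and 4 lower and 5 higher in 2006. No member was among 18 sets for photosynthesis and chlorophyll, of which 7 were lower in 2007 and 6 in 2006 and none was higher in either year. Over all 5371 named sets, 367 were lower and 339 higher in 2007, and 766 lower and 1106 higher in 2006. Sets have a name only where the study printed their values, mostly for genes it had selected on these samples, so that these counts are not independent evidence. None of the 2 named sets for seed storage proteins, markers of seed tissue, was a member, and no named set of the auxin, cell cycle, flavonoid, transport, transcription factor, receptor kinase or polyphenol oxidase lists was.

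Arrays were run on 20 slides, and 16 slides held more than 1 stage. Some slides held both veraison and mid-ripening arrays of a vineyard. Within them the median step of the 200 probes was negative in 4 of 4 cases in 2006 (-2.19 to -1.69). In 2007 it was negative in 3 of 3 (-1.69 to -0.72). In the 11 cases of 2008 it ran between -3.55 and -1.88, but these arrays chose the probes, so that this sign was built in. VM gave more than 1 of the cases of 2008, and PM gave none. The background rose and fell between arrays, with the 95th percentile of the random probes between 5.17 and 9.42, and at veraison its mean was 6.30 in 2006, 6.75 in 2007 and 7.14 in 2008. Its part in the year differences was not tested.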

How the data were processed

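The authors deposited 1 linear Cy3 intensity per probe for 171 NimbleGen arrays (36, 36 and 99 in 2006, 2007 and 2008), with 117999 gene probes, 19605 random control probes and 1759 blank features. Per the labels, RMA was used. The values were already quantile normalized, with sorted values within 0.133 (log2) of each other. Groups came from the labels, which set 2 arrays apart from their titles. Intensities were converted to log2, and triplicates and then vineyards were averaged. Columns of fold changes and p-values in the supplementary datasets were not used.

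The members and gene lists were chosen with earlier results of these data known. Probe numbers were tiled into sets of neighbors with a shared profile, and 5371 sets were named by matching their median polish to printed values (Pearson's r of at least 0.95, or 0.99 for at most 12 columns, with a lead of 0.01). Some datasets were held in part, and no sequences were used here. Named in the text were genes with 3 or more member probes, the 10 of highest score, those of largest called fall in 2006 or 2007, those called in neither year, and members of the gene lists, each by its highest-scoring probe, and all 11 named genes met this rule.

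Stages and years were compared with limma 3.58.1 (R 4.3.3, lmFit and eBayes) on triplicate means with vineyard as a term, and vineyards of 2008 with an F test on single arrays, with Benjamini-Hochberg adjustment over all gene probes. In the tests of stages and years, vineyards are the replicates of a year, and p-values measure their spread. In the F test, p-values measure the spread of the 3 arrays within a vineyard. The 3 arrays per group limit the precision. Replicate letters were not treated as pairs in the main tests. Alternatives were an offset of 50, subtraction of the random-probe median (floor of 16), removal of dim probes, single arrays, replicate and slide blocks, probe sets, a threshold of 0.01 and leaving out each replicate or vineyard. The scripts were tested on simulated data.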

Additional observations from a re-analysis of the deposited data

Results flagged for a closer look

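Of 72 groups of 4 vineyards that were examined for 1 vineyard standing far from the others, 6 were marked, where chance marks about 1 in 20. In each, the gap to the nearest vineyard exceeded Dixon's critical share of the whole range. The median of the 200 probes at mid-ripening of 2006 was 7.02 in MN, against 6.58 to 6.64 in the other vineyards. The highest-scoring probe of VIT_11s0016g02980 was at 5.34 in MN at mid-ripening of 2006, against 4.51 to 4.53. At mid-ripening of 2007 it was at 5.47 in MN, against 4.61 to 4.74, and all of these are below the random probes' mark. The subtilisin protease VIT_13s0019g02640 was highest in PSP at mid-ripening of 2006 (7.16, against 6.26 to 6.39) and lowest there at mid-ripening of 2007 (6.14, against 6.97 to 7.06). Its levels lay below the mark in 4 vineyards in 2006 and in 2 in 2007. The mark itself was 7.31 in PSP in 2006, against 6.44 to 6.67 elsewhere. In 2007 it was 5.96 in PSP, against 6.51 to 7.91 elsewhere, and its part was not tested. VIT_19s0090g00360 was at 8.54 in AM at veraison of 2006, against 8.76 to 8.80. No named gene passed the test of a difference between the steps of 2007 and 2006.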

How the results depend on the processing

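The choice of members kept 160 of the 200 probes with an offset of 50, 169 with the background subtracted, 158 with medians over vineyards, 179 to 189 without 1 vineyard and 181 to 183 without 1 replicate. The count of probes lower after veraison in 2006 stayed within 1.5 times of 170 under every alternative run on probes (129 to 187) and was 81 of 93 sets. That of 2007 (77) was 126 on single arrays, 121 with the replicate block, 122 with the slide block, 26 at the threshold of 0.01, 46 to 72 without 1 replicate, and 44, 40, 48 and 10 without AM, CS, MN and PSP. Counts between mid-ripening and harvest were few and unstable: in 2007 (7) they were 4 with the background subtracted, 95 on single arrays, 81 with the replicate block, 80 with the slide block, 7 of 93 sets, 1 at 0.01, 2 to 6 without 1 replicate and 0 without any 1 vineyard. In 2006 (1) they were 0 with the offset, 3 without dim probes, 37 on single arrays, 32 with the replicate block, 45 with the slide block, 4 of 93 sets, 0 at 0.01, 0 to 2 without 1 replicate and 0 without any 1 vineyard. For veraison of 2007 against 2006 (0), 110 were called on single arrays, 93 with the replicate block, 108 with the slide block and 3 of 93 sets. For the step of 2007 against 2006 (0), these were 96, 76, 82 and 9 of 93 sets, with 8 under the offset and 4 without dim probes. Single-array fits treat 3 arrays of a vineyard as independent. Of all gene probes, they called 14.2% lower after veraison in 2007. Between mid-ripening and harvest they called 16.7% in 2007 and 18.4% in 2006, and the 37 probes of 2006 lay near that share. For veraison and for the step of 2007 against 2006, they called 32.6% and 21.2%. Shares for the other alternatives are not given, and nothing particular to the 200 probes is read from those counts. For the F test, the count at veraison (187) was 105 to 156 without 1 replicate, and that at mid-ripening (107) was 38 with the slide block, 66 at 0.01 and 42 to 81 without 1 replicate. The causes were not tested. No called value of a named gene reversed its sign, and 1 lost its call (CSLE1 in 2007 without PSP, adjusted p = 0.064 by limma). Same replicate letters did not deviate together in the median (correlation of -0.0055, 37 of 171 pairs over 0.1). By vineyard and year their mean ran between -0.099 (CS of 2006) and 0.096 (MN of 2008). The labels do not say whether letters pair the samples, and the main tests did not treat them as pairs. After veraison, 74 to 123 of the 200 probes lay below the random probes' mark in the years studied, where falls are understated.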
